A study of Corbicula fluminea with 24 samples.

Results

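IFI44 and IFI44L are genes that vertebrate cells switch on in response to interferon, and 7 assembled transcripts (contigs) of the Asian clam Corbicula fluminea carry one of these names. They were taken by name, as every row of the count table whose symbol begins with ifi44 in any letter case, which gave 7 of 58291 contigs: IFI44, ifi44_bis, IFI44L, Ifi44l_bis, ifi44l.1.3, ifi44l.2.3 and ifi44l.3.3. The names ending in 1.3, 2.3 and 3.3 mark 3 contigs that share the name ifi44l. Reads may be split between contigs that resemble each other, so the value of each is uncertain to that extent. The measurements are read counts from the digestive gland of 24 clams held in cages from December to March, 1 library per clam. There were 8 clams downstream of a wastewater treatment plant (WWTP), 8 downstream of an urban runoff effluent (runoff) and 8 at a reference site (reference). The sources used here give no age, sex or lineage of the clams. Each site stands for 1 caging, so p-values measure the spread between clams, and effects of a site and of its cage cannot be told apart.

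In vertebrates, interferon is released when RNA or DNA of a virus is sensed inside a cell. It then acts through JAK kinases, STAT proteins and interferon regulatory factors to raise a large set of antiviral genes, IFI44 and IFI44L among them. The IFI44 proteins resemble GTP-binding proteins, and in mammals they can restrain the growth of some viruses. Bivalves have no clear interferon gene, but they carry sensors, IRF and STAT proteins and many contigs with names of interferon-induced genes. In the Pacific oyster, genes named IFI44 respond to virus challenge. The digestive gland of a bivalve digests food particles and stores lipid, and blood cells (haemocytes), muscle and gonad lie within or beside it. What each symbol below is known for comes from other animals.

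Library totals ranged from 40446849 to 97702086 counts. The first principal component of the libraries, computed without the 7 contigs and oriented so that the cellulase GUN increases along it, held 58.8% of the variance, and 8 libraries lay below its widest gap (2 WWTP, 3 runoff and 3 reference). These 8 libraries stood apart in the sum of digestive gland markers. The summed level of 7 such markers, none at 0 in any library, was 23.8 to 327 CPM (the usual unit of counts relative to a library's total, here after TMM scaling of that total) in the 8 libraries and 728 to 2100 CPM in the other 16. Markers of muscle (13 contigs) summed to 1270 to 13500 CPM in the 8 libraries and 296 to 3080 CPM in the other 16, and markers of the germline (3 contigs) to 4670 to 15800 and 134 to 7460 CPM. Candidate markers of haemocytes (5 contigs, 4 of them MPEG1, a pore-forming protein of macrophages) summed to 2.05 to 31.6 and 102 to 232 CPM, with 1 of the 5 at 0 in at least 1 library. Not every digestive gland marker followed the component. Over the 24 libraries 3 of the 7 had a Pearson r of log2 CPM above 0.5 with it, and 0 had one below -0.5. Of the 13 muscle markers 11 had an r below -0.5, as had all 3 germline markers, and all 5 haemocyte candidates had one above 0.5. In a bulk sample, fewer cells of a type and less RNA per cell cannot be told apart.

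ifi44_bis was the 1 family member whose difference between WWTP and reference clams passed the test, and it was higher in WWTP clams. Its level was 1.65 CPM in the lowest WWTP clam, 3.0 CPM at the median and 7.72 CPM in the highest. The runoff clams had a lowest value of 0.971, a median of 2.26 and a highest value of 2.84 CPM, and the reference clams 0.339, 1.35 and 2.21 CPM. All 8 WWTP clams were above the reference median and 6 were above the highest reference clam, so the sites overlapped in their lower part. WWTP individuals 33, 46 and 41 were the highest of all 24 clams, with 7.72, 7.65 and 5.50 CPM. They lay on both sides of the gap in the component, with scores of -56.2, 131.6 and -225.5.

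On average WWTP clams had 4.11 ± 2.52 CPM of ifi44_bis, against 1.40 ± 0.579 CPM at the reference site (SD, n = 8 each), a 2.92-fold difference. The log2 fold change was 1.55 (SE 0.35, 95% interval 0.83 to 2.27), and it passed edgeR's quasi-likelihood test with Benjamini-Hochberg adjustment over 57593 contigs (adjusted p = 0.0291). It was the 1 member of 7 called in this comparison, in which 1.47% of all contigs tested were called and 1.01% were called higher. With scaling by library totals its adjusted p was 0.0608 in edgeR, and with limma-voom it was 0.0603 (log2 fold change 1.06). Without WWTP individual 46 or reference individuals 21, 30 or 31 the edgeR adjusted p was 0.0788, 0.0533, 0.0622 and 0.063. WWTP individual 46 had the lowest TMM factor of the 24 libraries (0.755), so its CPM is higher than it would be by library total. The part of this factor in the call was not tested. In the 16 libraries above the gap, an alternative chosen after seeing the data, the log2 fold change was 0.93 (edgeR adjusted p = 0.258), while with the component as a term for all 24 libraries it was 1.55 (edgeR adjusted p = 0.0147).

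The same direction was seen in both sequencing lanes, each of which holds 4 libraries per site. In lane 3 the WWTP clams had 2.50 to 7.72 CPM of ifi44_bis and the reference clams 0.339 to 2.0 CPM, with no overlap. In lane 4 the WWTP clams had 1.65 to 5.50 CPM and the reference clams 1.13 to 2.21 CPM, and the sites overlapped. Within a lane the ifi44_bis log2 fold change was 2.04 in lane 3 and 1.0 in lane 4, and neither passed (edgeR adjusted p = 0.719 and 0.361). Of the whole table edgeR called 0 contigs in lane 3 and 1 in lane 4, against 3975 and 6261 at an unadjusted p under 0.05. Tissue marker sums differed between the highest clams. Muscle markers summed to 13500, 682 and 3850 CPM in WWTP individuals 33, 46 and 41, and haemocyte candidates to 31.6, 180 and 2.75 CPM. In the same order germline markers summed to 15800, 2460 and 5900 CPM and digestive gland markers to 327, 2100 and 33.8 CPM. The muscle and germline sums of WWTP individual 33 and the digestive gland sum of WWTP individual 46 were the highest of the 24 clams. The part of these tissues in the level of ifi44_bis was not tested.

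**Figure D1:**
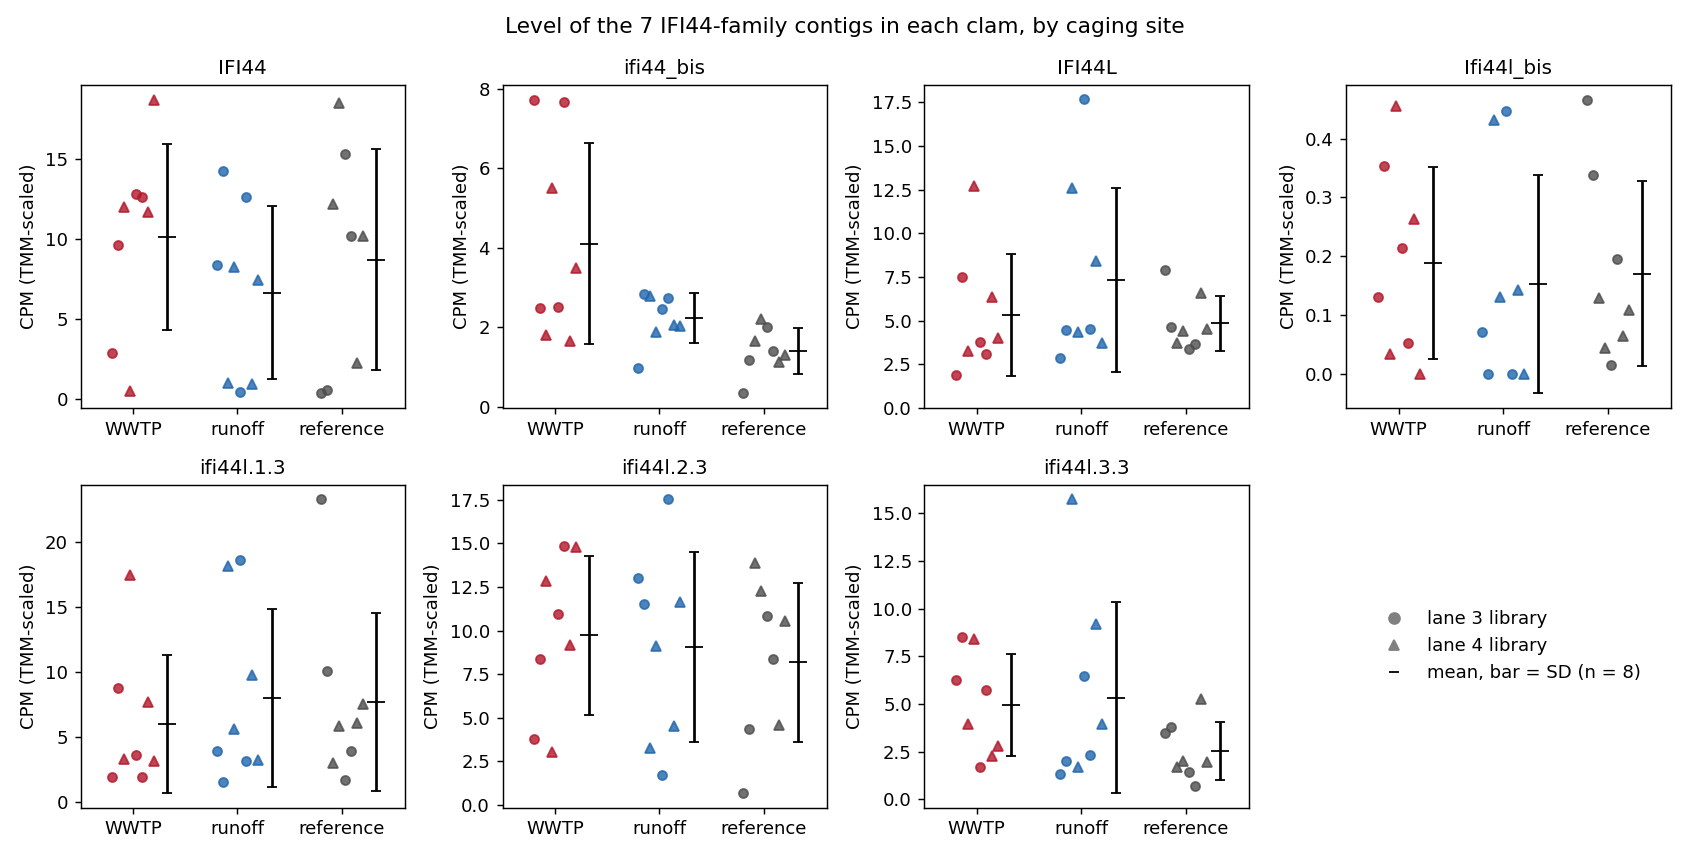
Level of each IFI44-family contig (CPM on a linear axis) in the 24 clams by caging site, with circles for lane 3, triangles for lane 4 and the mean ± SD of 8 clams beside each site. For ifi44_bis, 6 of 8 WWTP clams lie above the highest reference clam at 2.21 CPM. For ifi44l.3.3, 4 of 8 lie above the highest reference clam at 5.28 CPM, and the other 5 contigs overlap widely between sites.

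The runoff clams lay between the other two sites in ifi44_bis. Their mean was 2.22 ± 0.628 CPM, and 7 of the 8 were above the reference median. Against the reference clams the log2 fold change was 0.67 (SE 0.345, 95% interval -0.05 to 1.38), which missed the threshold (edgeR adjusted p = 0.548). The exact two-sided permutation test of the mean log2 level alone gave p = 0.0286, without adjustment for 21 such tests. WWTP clams exceeded runoff clams by a log2 fold change of 0.88 (SE 0.343, interval 0.17 to 1.59), which also missed (edgeR adjusted p = 0.232). So in the order WWTP, runoff, reference, neither pair of neighbours differed at the threshold, and the ends did. The comparisons with reference share their 8 reference clams.

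ifi44l.3.3 had higher medians at both effluent sites, but neither difference from the reference site passed the threshold. WWTP clams ran from 1.70 over a median of 4.84 to 8.52 CPM, runoff clams from 1.34 over 3.13 to 15.7 CPM, and reference clams from 0.705 over 1.97 to 5.28 CPM. Of the WWTP clams 4 of 8, and of the runoff clams 3 of 8, were above the highest reference clam. The ifi44l.3.3 log2 fold change against reference was 0.96 (SE 0.497) in WWTP clams and 1.07 (SE 0.497) in runoff clams, with edgeR adjusted p of 0.386 and 0.472. With the component as a term the WWTP difference was 1.29 and passed (edgeR adjusted p = 0.0347), a setting under which 2648 contigs were called. In the 16 libraries above the gap, chosen after seeing the data, it was 1.42 without passing (edgeR adjusted p = 0.126). Without runoff individual 53, the highest clam, the runoff log2 fold change was 0.60. Between WWTP and runoff clams it was -0.11 (SE 0.491, interval -1.12 to 0.91).

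Sequencing depth moved with ifi44l.3.3. Its log2 CPM fell with the log2 library total over the 24 libraries (r = -0.59, rho = -0.56, permutation p = 0.00252, adjusted p = 0.0176 over 7 members, r = -0.55 without the 2 farthest libraries). It was -0.65 in lane 3 and -0.52 in lane 4, and -0.79 within WWTP, -0.45 within runoff and -0.32 within reference clams. The median total was 58434815 counts in WWTP, 58280852 in runoff and 72590428 in reference libraries. The part of depth in the site difference of ifi44l.3.3 was not tested. For Ifi44l_bis r was -0.51 (rho = -0.49, permutation adjusted p = 0.0419, -0.37 without the 2 farthest libraries), and for ifi44_bis -0.15 (rho = -0.11, permutation adjusted p = 0.49). IFI44 had r = 0.39 (permutation adjusted p = 0.107) and rho = 0.58 (unadjusted permutation p = 0.00351). The r was -0.40 for ifi44l.1.3 (rho = -0.42), 0.32 for ifi44l.2.3 (rho = 0.41) and -0.28 for IFI44L (rho = -0.19). Their permutation adjusted p for r were 0.107, 0.185 and 0.209.

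The other 5 members showed no difference between sites that passed. IFI44 had a median of 11.8 CPM in WWTP, 7.81 CPM in runoff and 10.2 CPM in reference clams, and every site held clams below 1 CPM and clams above 14 CPM. Its log2 fold change against reference was 0.22 (95% interval -1.36 to 1.80) in WWTP and -0.38 (-1.97 to 1.2) in runoff clams. These intervals include changes of more than 2-fold either way, so the data leave room for a sizeable difference. For ifi44l.2.3 the site medians were 10.1, 10.3 and 9.45 CPM in the same order, with log2 fold changes of 0.25 (95% interval -0.74 to 1.25) and 0.14 (-0.85 to 1.14) against reference. With 1 library left out at a time these were 0.07 to 0.40 and -0.06 to 0.30. IFI44L had medians of 3.90, 4.50 and 4.46 CPM and log2 fold changes of 0.14 (95% interval -0.65 to 0.93) and 0.60 (-0.19 to 1.39). For ifi44l.1.3 the medians were 3.48, 4.76 and 5.96 CPM and the log2 fold changes -0.36 (-1.54 to 0.82) and 0.06 (-1.12 to 1.24). Single libraries moved these values: with 1 library left out at a time, IFI44L lay between -0.18 and 0.27 in WWTP and between 0.27 and 0.73 in runoff clams, and ifi44l.1.3 between -0.82 and 0.13 and between -0.24 and 0.55. The lowest values came without WWTP individual 41 and without runoff individual 56, and the highest without reference individual 20 (for IFI44L in WWTP clams also without WWTP individual 33).

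Ifi44l_bis was close to the limit of detection. It had 0 to 33 counts per library and none in 4 clams (WWTP individual 48 and runoff individuals 50, 60 and 63). A count of 0 allows up to 3 counts, or 0.0323 to 0.0792 CPM depending on the library. Its mean was 0.188 ± 0.163 CPM in WWTP, 0.153 ± 0.186 CPM in runoff and 0.170 ± 0.157 CPM in reference clams.

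Across the family, 1 of 7 members was called for WWTP against reference, 0 for runoff against reference (0.116% of all contigs called, 0.0469% higher and 0.0695% lower) and 0 for WWTP against runoff (1.06% called, 0.769% higher and 0.288% lower). Before adjustment, 1 member had p under 0.05 in each comparison, against 14.5%, 9.95% and 13.5% of all contigs. In the same order of comparisons the median log2 fold change of the 7 was 0.22, 0.14 and 0.11, with 6, 5 and 4 positive. Over all contigs it was 0.00645, 0.0117 and -0.00655, with 51.0%, 52.1% and 49.0% positive. DESeq2 called 1, 0 and 0 members and limma-voom 0 in each.

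**Figure D2:**
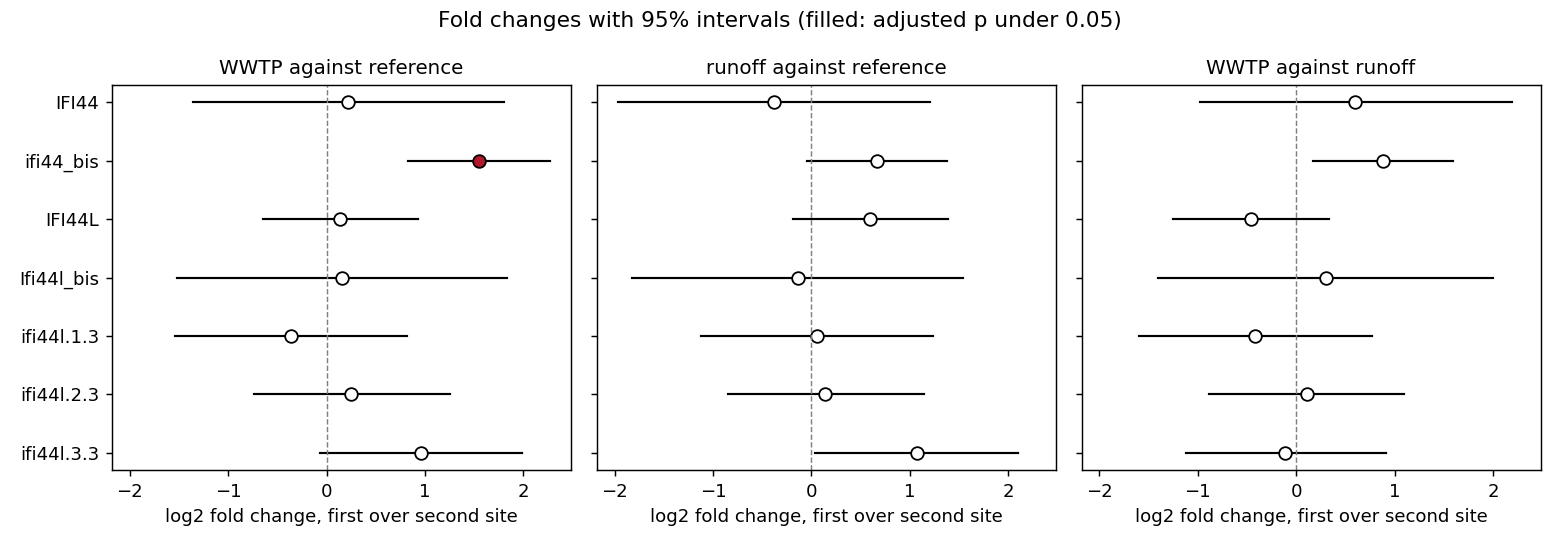
Log2 fold change (x axis, first site over second) of the 7 contigs in the 3 comparisons, with lines for 95% intervals and a filled point where the adjusted p was under 0.05. The filled point is ifi44_bis for WWTP against reference at 1.55, and the interval of IFI44 in the same panel runs from -1.36 to 1.80.

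Whether 2 members moved apart between sites was asked with the log2 ratio of their counts in the same library, which does not depend on scaling. None of 63 comparisons (21 pairs of members in 3 site comparisons) passed after adjustment, by two-sided exact permutation over every split of 8 against 8 clams. At an unadjusted p under 0.05 there were 3, all for WWTP against reference. The log2 ratio of ifi44_bis to IFI44L was -0.38 ± 1.39 in WWTP and -1.89 ± 1.21 in reference clams (SD, n = 8 each; difference 1.51, exact p = 0.0308, adjusted p = 0.646). The ratio of IFI44L to ifi44l.3.3 differed by -1.03 (exact p = 0.0305) and that of ifi44l.1.3 to ifi44l.3.3 by -1.36 (exact p = 0.0289). So the rise of ifi44_bis was not shown to differ from the change of its relatives.

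Clams of the same site differed widely. Site accounted for 41.7% of the variance in log2 CPM of ifi44_bis and 16.2% for ifi44l.3.3. For the other 5 it accounted for 2.33% to 6.34%. The component accounted for 96.0% of the variance of IFI44, 84.2% of ifi44l.2.3, 66.3% of ifi44l.1.3 and 3.83% of ifi44_bis. Its low side held 2 WWTP, 3 runoff and 3 reference libraries, and its relation to site was not tested. Sequencing lane accounted for 0.0114% to 4.60%. IFI44 spanned 55.1-fold between the lowest and the highest clam, more variable in log2 CPM than 96.3% of contigs tested.

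IFI44 and ifi44l.2.3 were low in the 8 libraries with low sums of digestive gland markers. IFI44 had 0.339 to 2.86 CPM in these and 7.39 to 18.7 CPM in the other 16, without overlap. ifi44l.2.3 had 0.678 to 4.56 CPM and 8.35 to 17.5 CPM, again without overlap. The libraries were not chosen by these contigs, but by the component that holds 58.8% of the variance of all contigs, so no test of this difference is given. The same 8 libraries held lower sums of haemocyte candidates and digestive gland markers and mostly higher sums of muscle and germline markers, as given above. The part of each tissue in the level of IFI44 and ifi44l.2.3 was not tested.

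IFI44L, Ifi44l_bis and ifi44l.1.3 ran the other way. ifi44l.1.3 reached 17.5 CPM in WWTP individual 41, 18.7 CPM in runoff individual 56 and 23.3 CPM in reference individual 20, all among the 8 libraries, and did not exceed 8.76 CPM in the other 16. IFI44L reached 17.7 CPM in runoff individual 56, against a highest value of 7.49 CPM in the other 16. Not every clam followed this, since WWTP individual 33, one of the 8, had the lowest IFI44L of all clams at 1.89 CPM and 1.89 CPM of ifi44l.1.3. The highest Ifi44l_bis, at 0.466 CPM or 33 counts, was again in reference individual 20. ifi44l.3.3 had 3.46 to 15.7 CPM in the 8 libraries and 0.705 to 8.52 CPM in the other 16. ifi44_bis had 0.339 to 7.72 CPM and 0.971 to 7.65 CPM, and so nearly the same range on both sides.

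**Figure D3:**
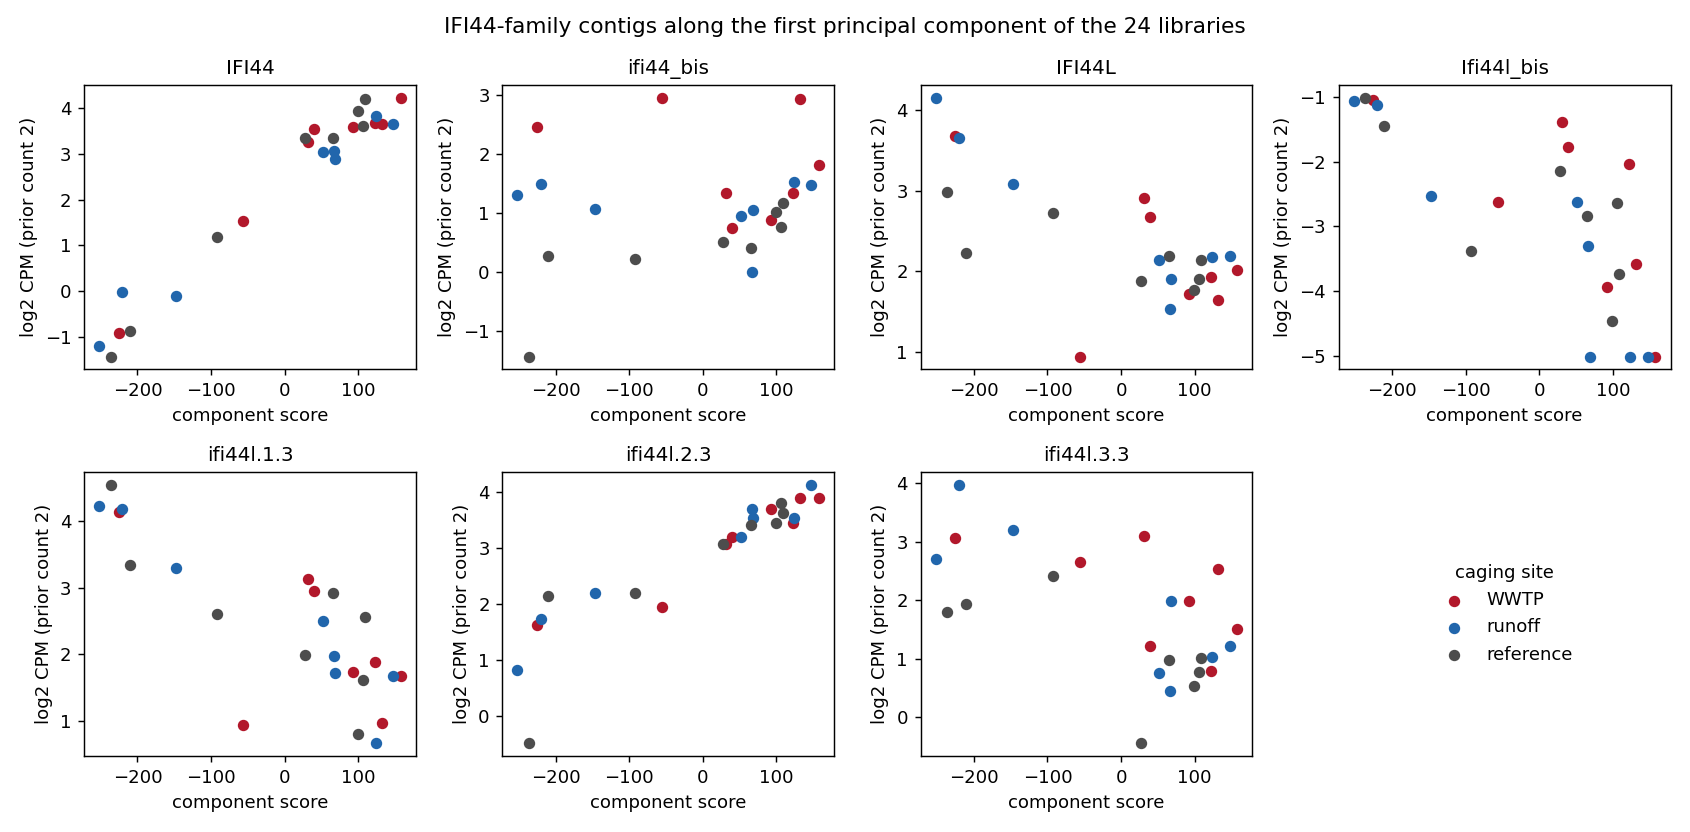
Log2 CPM of each contig (y axis, prior count 2) against the library's score on the first principal component (x axis, arbitrary units), coloured by caging site. IFI44 and ifi44l.2.3 climb from left to right, IFI44L, Ifi44l_bis and ifi44l.1.3 descend, and the 3 highest points of ifi44_bis are WWTP clams spread along the axis.

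Because the libraries fall into these 2 sets, relations across clams are given within each set. In the 8 libraries the component rose with IFI44 (Pearson r = 0.94, Spearman rho = 0.90, exact permutation adjusted p = 0.00706) and fell with ifi44l.1.3 (r = -0.93, rho = -0.95, adjusted p = 0.00243). In the other 16 it rose with ifi44l.2.3 (r = 0.84, rho = 0.81, permutation adjusted p = 0.00098), IFI44 (r = 0.69, rho = 0.75, adjusted p = 0.0112) and ifi44_bis (r = 0.62, rho = 0.74, adjusted p = 0.0152). There it fell with ifi44l.1.3 (r = -0.63, rho = -0.71, adjusted p = 0.0176). Ifi44l_bis fell along it in both sets (r = -0.92, rho = -0.90, adjusted p = 0.0144 in the 8; r = -0.66, rho = -0.67, permutation adjusted p = 0.0144 in the 16). IFI44L fell along it in the 8 (r = -0.76, rho = -0.76, exact permutation adjusted p = 0.0372), which rests on the 2 farthest libraries, without which r was -0.41. Without those 2 libraries the r of IFI44 and ifi44l.1.3 were 0.68 and -0.78 in the 8. Those of ifi44l.2.3, IFI44, ifi44_bis and ifi44l.1.3 in the 16 were 0.76, 0.70, 0.69 and -0.60, and those of Ifi44l_bis -0.96 in the 8 and -0.53 in the 16. P-values were adjusted over the 14 relations of 7 members in 2 sets. The 4 clams with 0 counts of Ifi44l_bis are all among the 16, so its r there includes values at the floor. Among all contigs, in the 8 libraries, 3.45% of contigs had an absolute r with the component at least as large as that of IFI44, 3.66% as ifi44l.1.3, 4.35% as Ifi44l_bis and 12.3% as IFI44L. In the 16 the shares were 2.69% for ifi44l.2.3, 13.1% for IFI44, 15.9% for Ifi44l_bis, 19.4% for ifi44l.1.3 and 20.7% for ifi44_bis.

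Between members, no pair passed within a set after adjustment over 42 relations. The closest were in the 8 libraries IFI44 with ifi44l.1.3 (r = -0.87, rho = -0.86, exact permutation p = 0.0026, adjusted p = 0.0646, r = -0.49 without the 2 farthest libraries). In the other 16 they were Ifi44l_bis with ifi44l.2.3 (r = -0.67, rho = -0.63, permutation p = 0.00515, adjusted p = 0.0646) and with ifi44l.1.3 (r = 0.66, rho = 0.69, p = 0.00522, adjusted p = 0.0646). Both of these include the 4 clams with 0 counts of Ifi44l_bis. IFI44L with ifi44l.1.3 had r = 0.87 (rho = 0.64, exact permutation adjusted p = 0.0781) in the 8 libraries and 0.64 (rho = 0.47, permutation adjusted p = 0.0646) in the 16, and 0.57 and 0.35 without the 2 farthest libraries. The members with the highest log2 fold changes for WWTP against reference, ifi44_bis and ifi44l.3.3, had r = 0.60 (rho = 0.62, exact permutation adjusted p = 0.282) in the 8 and 0.57 (rho = 0.59, permutation adjusted p = 0.121) in the 16.

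**Figure D4:**
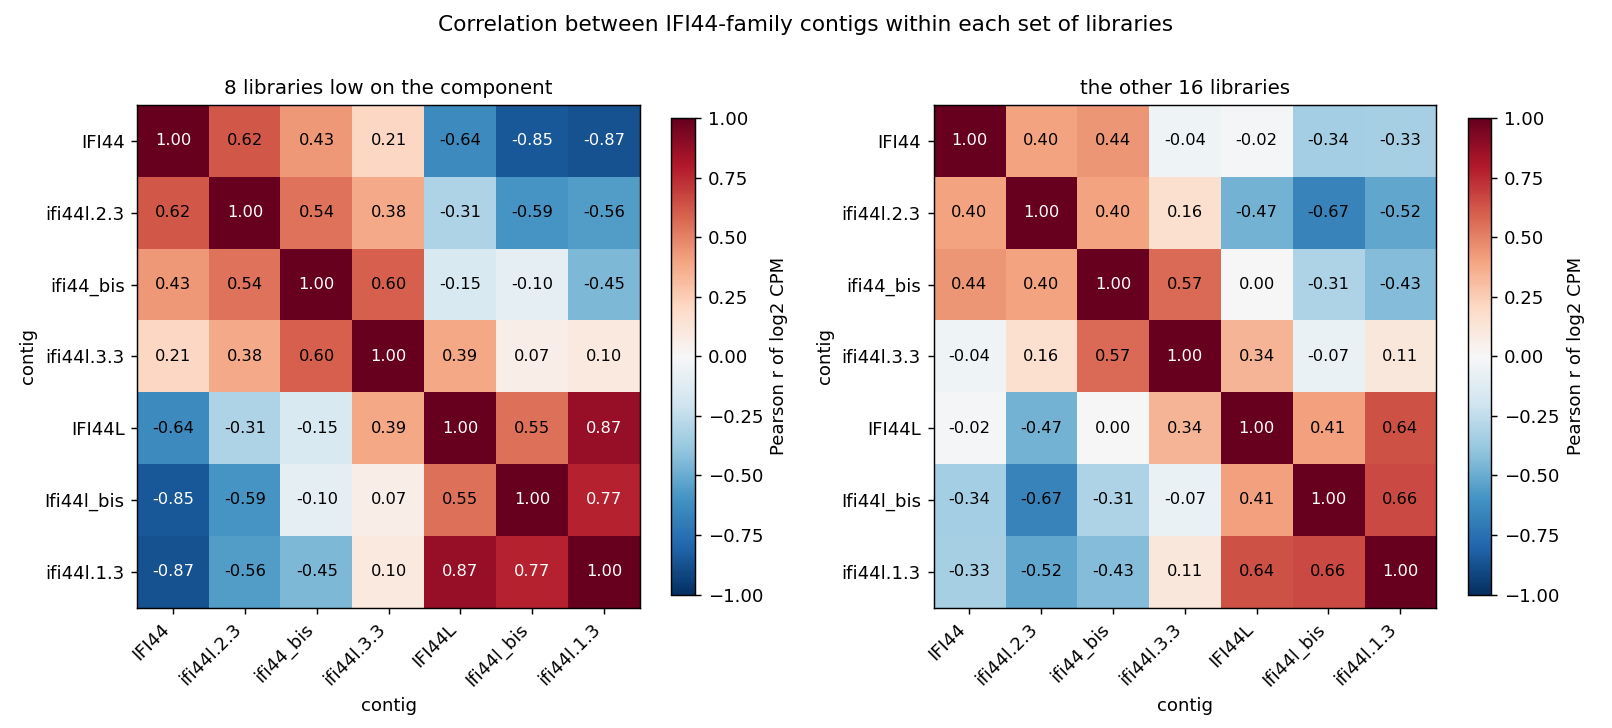
Pearson r of log2 CPM between the 7 contigs, within the 8 libraries low on the component (left) and within the other 16 (right). IFI44L and ifi44l.1.3 have r of 0.87 and 0.64, which did not pass after adjustment, while IFI44 and IFI44L are at -0.64 on the left and -0.02 on the right.

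The contigs most like each member were sought among 1414 others with a gene symbol and a mean of at least 1 CPM (1415 for Ifi44l_bis), by Pearson r of log2 CPM over the 24 libraries. These r describe likeness, come from the top of a long list and carry no test. For ifi44_bis they were irf2 (r = 0.72), TRIM35 (0.71), stat4 (0.67), WDR59.2.2 (0.65) and CISD2 (0.61). irf2 is named for interferon regulatory factor 2, a transcription factor that in mammals binds the promoters of interferon-responsive genes and mostly holds them back. stat4 is named for a STAT protein that in mammals carries signals of interleukin 12 and interferon. TRIM35 is a ubiquitin ligase, WDR59 a part of the amino acid sensing machinery of lysosomes, and CISD2 an iron-sulphur protein of the endoplasmic reticulum.

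The 3 clams highest in ifi44_bis were also the 3 highest in irf2. irf2 was at 20.0, 15.8 and 14.6 CPM in WWTP individuals 33, 46 and 41, and no other clam exceeded 10.8 CPM. Its median was 8.49 CPM in WWTP, 7.0 CPM in runoff and 6.4 CPM in reference clams. The r of irf2 with ifi44_bis was 0.92 within WWTP, 0.67 within runoff and 0.09 within reference clams, and 0.73 and 0.71 within lanes 3 and 4. For stat4 it was 0.77, 0.28 and 0.57 within sites, and for TRIM35 0.54, 0.73 and 0.81. These r come from the same libraries by which the 3 contigs were picked, so they are no separate support. Over the 24 libraries irf2 also had r = 0.69 with ifi44l.3.3, where stat4 had -0.01 and TRIM35 -0.09. Among all contigs with a mean of at least 1 CPM, named or not, the highest r with ifi44_bis was 0.88. Between sites irf2 missed the threshold for WWTP against reference (mean 11 ± 5.11 against 6.97 ± 1.58 CPM; a log2 fold change of 0.66, SE 0.237, edgeR adjusted p = 0.167). With the component as a term it was 0.72 and passed (edgeR adjusted p = 0.0486), a setting under which 2648 contigs were called. It did not pass in the other 12 alternatives. Nor did it in any of 24 fits that left out 1 library (edgeR adjusted p of 0.114 to 0.37). These alternatives for irf2 were added after seeing the data. stat4 missed the threshold too (21.6 ± 4.88 against 14.4 ± 3.93 CPM, 0.59, SE 0.205, edgeR adjusted p = 0.153).

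**Figure D5:**
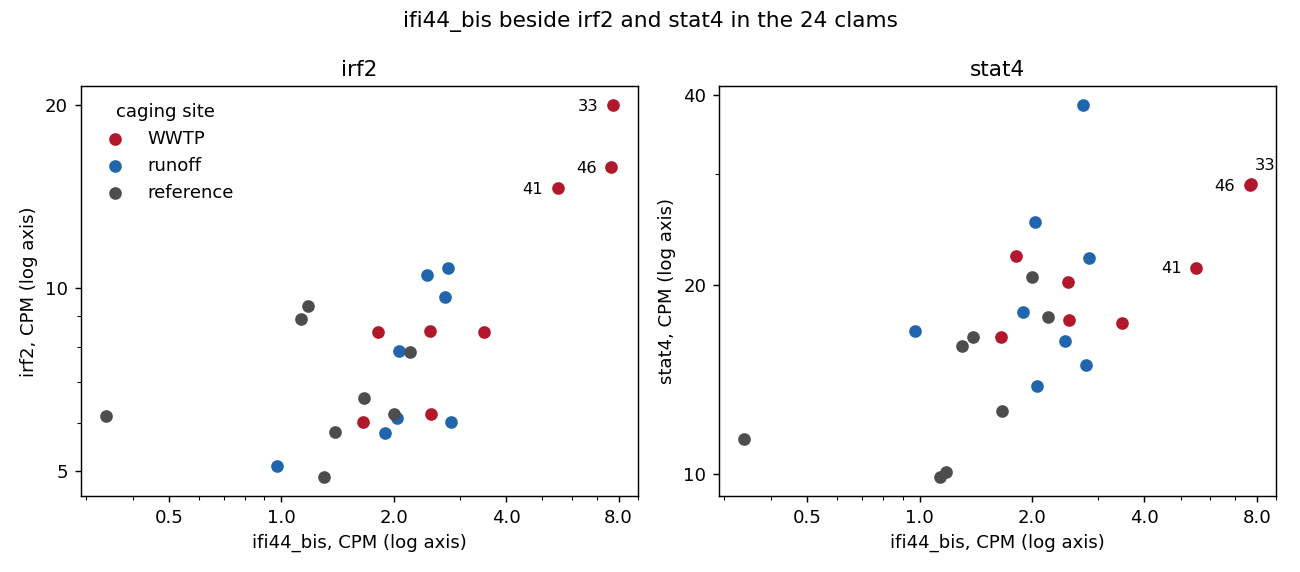
Level of irf2 (left) and stat4 (right) against ifi44_bis in the 24 clams (CPM, both axes logarithmic), coloured by caging site, with WWTP individuals 33, 41 and 46 numbered. These 3 clams hold the highest irf2 values, 14.6 to 20.0 CPM, beside 5.50 to 7.72 CPM of ifi44_bis.

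The remaining members resembled other contigs. ifi44l.3.3 was closest to slc6a8, a creatine transporter, SAA, a serum amyloid A of the acute phase, and ITGA9.2.2, an integrin subunit (r = 0.76 each), followed by REXO1_bis and the lysozyme LYS.1.5 (0.74 each). IFI44 was closest to MPEG1.4.4, Egfl7, LCK.2.2, MPEG1.1.4 and fat4.2.3 (0.99 each), and these r span the gap between the sets of libraries. As many as 3441 contigs reached an r above 0.9 with IFI44 and 1351 with ifi44l.2.3, against 185 with ifi44l.1.3, 36 with IFI44L and 0 with ifi44_bis, Ifi44l_bis or ifi44l.3.3.

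Among the contigs most like a member were 3 named for guanylate-binding proteins, interferon-induced GTPases of vertebrates: gbp7 for ifi44l.2.3 (r = 0.96), GBP2.2.4 for ifi44l.1.3 (0.92) and GBP1.4.4 for IFI44L (0.91). These also followed the component, with r of 0.94, -0.84 and -0.62 over the 24 libraries. Of the other GBP1 and GBP2 contigs, GBP2.4.4 had r of 0.85 with IFI44L and 0.83 with ifi44l.1.3. GBP1.1.4, GBP1.2.4, GBP1.3.4, GBP2.1.4 and GBP2.3.4 had 0.17 to 0.46 and 0.02 to 0.39 in that order. With ifi44l.2.3, GBP2.4.4, GBP2.2.4, GBP1.4.4 and GBP1.2.4 had r of -0.80, -0.78, -0.58 and -0.53. GBP1.3.4, GBP1.1.4, GBP2.1.4 and GBP2.3.4 had 0.05, 0.11, 0.31 and 0.36 with ifi44l.2.3. For gbp7 the r was -0.64 with IFI44L and -0.74 with ifi44l.1.3. ifi44l.2.3 was closest to FCER2.3.4 and SVEP1.7.13 (0.97 each), with MOT10, a transporter (0.95). ifi44l.1.3 was closest to LCK.1.2, a kinase of the Src family (0.95), with CALM.14.18, a calmodulin (0.93), susd1.3.6 (0.92) and ILEU, a serpin (0.91). IFI44L was closest to YTX2.3.3 (0.93), CALM3.2.3, CALM.7.18 and SUSD1 (0.91 each). Ifi44l_bis was closest to sall1.1.2_bis (0.83), SCP.6.7 (0.80), XIAP.1.5, an inhibitor of apoptosis (0.79), its relative ifi44l.1.3 and SCP.7.7 (0.78 each). LCK contigs stood on both sides, with LCK.2.2 beside IFI44 and LCK.1.2 beside ifi44l.1.3.

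The rest of the interferon and antiviral pathway was followed in 54 contigs that match name patterns for sensors (7), transcription factors and JAK-STAT proteins (6) and interferon-induced effectors (41). The patterns for adaptor proteins and kinases and for RNA interference matched 0 contigs. The effector pattern took name families broadly, the HERC2 and IRGC contigs among them. Whether each matched contig responds to interferon was not tested. For WWTP against reference 0 of the 54 were called higher and 1 lower, where 1.01% of all contigs were called higher and 0.455% lower. Before adjustment, 5 were higher and 4 lower at a p under 0.05, beside 14.5% of all contigs in either direction. Of the 54, 27 had a positive log2 fold change, with a median of 0.00, beside 51% of all contigs and a median of 0.00645. For runoff against reference edgeR called 0, beside 0.116% of all contigs. Without adjustment 3 were higher and 1 lower at the same threshold, beside 9.95% of all contigs in either direction. For WWTP against runoff 0 were called higher and 1 lower, beside 0.769% and 0.288% of all contigs, and the median was -0.06.

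The contig called was RELB, named for a subunit of NF-kappa-B, in both comparisons of the WWTP site. It ran from 0.851 over a median of 1.18 to 1.38 CPM in WWTP clams, from 1.31 over 1.53 to 1.95 CPM in runoff clams, and from 1.40 over 1.67 to 1.94 CPM in reference clams. All 8 WWTP clams were below the lowest reference clam, and 7 of 8 were below the lowest runoff clam. The log2 fold change was -0.54 against reference (SE 0.11, edgeR adjusted p = 0.0209) and -0.47 against runoff (SE 0.111, edgeR adjusted p = 0.0382). RELB thus fell in WWTP clams, while ifi44_bis rose. Within lanes the difference from reference was -0.49 and -0.58 without a call (edgeR adjusted p = 0.719 and 0.257), and in the 16 libraries above the gap -0.59 (0.0689). The call against runoff was lost in 9 of 24 fits that left out 1 library, with log2 fold changes of -0.52 to -0.42 and edgeR adjusted p of 0.0273 to 0.0871, in either lane, in the 16 libraries (0.0724) and with the 2 sites alone (0.0906). These alternatives were added after seeing the data.

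In the lists without a call for WWTP against reference, the member with the smallest adjusted p was CGAS.1.2 among the sensors (mean 4.83 ± 2.10 against 6.24 ± 2.45 CPM, with a log2 fold change of -0.37 and an edgeR adjusted p = 0.645). CGAS senses DNA in the cytosol of mammalian cells. Among the effectors it was IIGP1, a GTPase of the immunity-related family (5.45 ± 1.04 against 4.18 ± 1.0 CPM, 0.38, edgeR adjusted p = 0.224). Chosen after its values were seen, rsad2, named for the antiviral enzyme viperin, had a median of 9.85 CPM in WWTP, 12 CPM in runoff and 11.1 CPM in reference clams. Its r with ifi44_bis was 0.19 over the 24 libraries. Of the 54 contigs, 18 (33.3%) had an r above 0.5 with the component over the 24 libraries and 6 (11.1%) below -0.5, beside 24.4% and 22.5% of all contigs tested.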

How the data were processed

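The deposited table holds raw read counts per assembled contig, 1 column for each of 24 libraries; they are whole numbers with differing totals. The submitters' processing notes list BWA 0.7.12 and SAMtools 1.1. Per the labels' protocols, a Promega kit gave the RNA and a TruSeq kit the libraries. How contigs were assembled and named, and how reads and strands were counted, is not stated by any source at hand. No count column was left out (0 unmapped).

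Low contigs were dropped by filterByExpr on site (minimum count 10, 57593 kept, 698 removed, all 7 members were kept). The rest were scaled by TMM and fitted together for all 24 libraries by robust quasi-likelihood in edgeR 4.0.16 under R 4.3.3. P-values were adjusted by Benjamini-Hochberg over all contigs, threshold 0.05. Fold changes are first site over second. Principal components used log2 CPM (prior count 2). Log2 ratios used a prior count of 0.5. Permutation tests were two-sided, exact or with 100000 permutations. Intervals and the limit of 3 counts for a count of 0 cover counting error or clam spread as fitted. The test was also run on simulated counts, drawn for each contig separately and without a shared component. That run therefore cannot show how the test behaves in the presence of the component.

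The members, the pathway and tissue marker lists, the naming rule and the component as a term were chosen with earlier results of these data known. The naming rule takes every member, the 5 symbols most like each (1 of them is not reported here), and of the pathway lists those past the threshold or else the smallest adjusted p for WWTP against reference. Relations over all 24 libraries were planned, but are given within 2 sets of libraries because the libraries fall apart along the component. Alternatives were other scalings and filters, lane as a term, single lanes, 2 sites alone, the component as a term, DESeq2 1.42.0, limma-voom (limma 3.58.1), exact permutation and each library left out. Figures were drawn with python 3.11.15.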

Additional observations from a re-analysis of the deposited data

Results flagged for a closer look

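Among 21 groups (7 contigs at 3 sites), 2 clams stood further from the others of their site than Dixon's limit for 8 values allows. The limit was applied to CPM on a linear scale and not to log2 CPM. Chance flags about 1 in 20 groups where values are normally distributed, which was not checked for these CPM. Both concern ifi44l.1.3, which was at 17.5 CPM in WWTP individual 41 and at 23.3 CPM in reference individual 20. Both clams are among the 8 libraries low on the component.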

How the results depend on the processing

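No paired analysis was possible because numbers within a site follow accession order and mark no shared animal. For ifi44_bis in WWTP against reference clams the log2 fold change stayed positive in every alternative run and lost its call with library totals as scaling (1.42), lane 3 alone (2.04), lane 4 alone (1.0), the 2 sites alone (1.55), limma-voom (1.06) and, chosen after seeing the data, the 16 libraries high on the component (0.93). The number of members called was then 0, and 2 with the component as a term. The cause was not tested, beyond the fewer clams in 4 of these fits. Leaving out single libraries gave 1.35 to 1.67 with edgeR adjusted p of 0.0199 to 0.0788, and 0 to 1 members called. For the other members no called value changed sign; uncalled ones changed sign in some settings. No ratio of members was called under any alternative. Contigs called for WWTP against reference were 846, against 522 (upper quartile), 165 (library totals, 38 higher), 516 (2 sites), 2328 (DESeq2), 2683 (limma-voom), 2648 (component), 174 (16 libraries), 0 and 1 (lanes 3 and 4), and 206 to 1342 with a library left out. For runoff against reference they were 67, 27 of them higher, against 25 (upper quartile, 13 higher), 0 (library totals; edgeR, 4181 at an unadjusted p under 0.05), 11, 825, 411, 956 and 0 in that order, 0 in each lane, and 0 to 198. For WWTP against runoff they were 609, 443 of them higher, against 423 (upper quartile, 253 higher), 541 (library totals, 37 higher), 115, 1968, 1685, 3027 and 477 in that order, 0 in each lane, and 112 to 1010. With library totals the median over all contigs lay, in log2 fold change, at -0.16 for WWTP against reference and -0.20 for WWTP against runoff. Depth limits Ifi44l_bis, with 0 to 33 counts per library.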
